A study of Homo sapiens with 10 samples.

Results

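C/D box small nucleolar RNAs (snoRNAs) were profiled in the human embryonic kidney line HEK-293 after siRNA silencing of a long noncoding RNA (lncRNA), LINC00324 or LOC400043. They were taken by name: the human probe sets of the array whose names begin with U and a number or with HBII, without the H/ACA and Cajal body RNAs that carry such names and without the imprinted HBII families. That gave 163 probe sets for 123 snoRNA names, among 4435 human rows and 20706 rows in all. A mean log2 signal above 1.31, a floor set by plant probe sets of the same array, was met by 124 of the 163 probe sets (93 names), and 39 lay below it. The suffixes _st, _s_st and _x_st distinguish probe sets, and a snoRNA can have more than 1.

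C/D box snoRNAs are short nuclear RNAs that hold the sequence motifs called box C and box D and bind the proteins fibrillarin, NOP56, NOP58 and SNU13. Most of them pair with ribosomal RNA and guide its 2′-O-methylation, while a few, such as U3, U8, U14 and U22, are needed for the cleavage of the ribosomal RNA precursor. Most human C/D snoRNAs are cut out of introns, many of them in genes for ribosomal proteins or in noncoding host genes such as GAS5 and SNHG1.

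The study asked how microRNAs (miRNAs) changed when each lncRNA was silenced. Cells received 10 nM of an siRNA by lipid transfection, and total RNA was put on Affymetrix miRNA 2.0 arrays, 1 array per sample. The 5 groups of 2 arrays each were LINC00324 siRNA 2, LINC00324 siRNA 1, LOC400043 siRNA 2, LOC400043 siRNA 1 and a scramble siRNA. Replicates are biological according to the labels, which do not say whether separate cultures were used, so the p-values here measure only the spread between arrays. No other cell line or genotype was used, and how far each siRNA lowered its target was not analysed here. Normalization runs are not named in the labels. Because the scramble values differ between 2 deposited tables, the LOC400043 arrays were taken to come from another run than the other arrays. The LOC400043 siRNAs were therefore set against each other and not against scramble. The number of arrays limits the precision: the median standard error of a difference between 2 groups was 0.22 on the log2 scale.

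The 2 arrays of a group gave much the same picture of these RNAs, with Pearson correlations across the 124 probe sets from 0.990 to 0.995 (snoRNAs are not independent replicates). Among miRNAs known from other cell types, those of liver and muscle lay below the floor (0 of 1 and 0 of 4), as did 4 of 5 of blood. The highest mean log2 signal was 1.81 in the blood list, 1.84 in the epithelial list (1 of 4 above the floor) and 5.92 in the neuronal list (2 of 3). Of 5 miRNAs of proliferating cells, 4 were above it, the highest at 12.8.

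HEK-293 cells gave strong signal for many C/D snoRNAs. U43 (SNORD43, held by the ribosomal protein gene RPL3) had log2 signals of 11.12 and 11.21 with LINC00324 siRNA 2, 10.67 and 10.55 with LINC00324 siRNA 1, and 10.37 and 10.54 with scramble. U95 (SNORD95), held by RACK1, a gene for a ribosomal scaffold protein, had 11.16 and 11.11 with LINC00324 siRNA 2, 10.63 and 10.48 with siRNA 1, and 10.26 and 10.57 with scramble (probe set U95_st). For both probe sets, U43_st and U95_st, the siRNA 2 arrays were the highest of the 6. The siRNA 1 arrays overlapped the scramble arrays for U95_st, and for U43_st they were barely apart, at 10.55 against 10.54. On U43_x_st they overlapped, with 9.97 and 9.82 with siRNA 1 against 9.80 and 10.02 with scramble. The other probe sets of highest mean belonged to U44 and U78 (SNORD44 and SNORD78, both in GAS5), U55 (SNORD55) and U29 (SNORD29, in SNHG1), with means over the 10 arrays between 9.47 for U29_st and 10.45 for U44_x_st. Signals of different probe sets depend on their probes too, so they do not rank the snoRNAs by abundance. Just above the floor were U97_st (1.34), HBII-295_st (1.34) and HBII-296B_st (1.32), and just below it HBII-180B_x_st (1.28), HBII-95_x_st (1.27) and U35B_st (1.26). U22 and U47, of the SNHG1 and GAS5 introns, were below the floor.

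Silencing of LINC00324, taken as the mean of both siRNA groups minus scramble, left 7 of 124 C/D probe sets higher and 0 lower at an adjusted p under 0.05 (limma, Benjamini-Hochberg over the 724 human probe sets above the floor). Over all 724 probe sets, 1.52% were called higher, against 5.65% of the C/D probe sets. The 7 stand for 6 snoRNAs: U41 (2 probe sets), HBII-202, U14B, U33, U57 and HBII-276. Arrays of bulk RNA cannot tell apart fewer cells of a type and less RNA per cell. The median difference of the C/D probe sets was 0.34, beside 0.05 for all tested probe sets, 0.07 for the 72 H/ACA and Cajal body probe sets and -0.13 for the 329 mature miRNAs. Differences were positive for 112 of the 124, beside 400 of all 724. The median of 8 background control probes with 18 or more G or C bases was -0.80.

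U41 (SNORD41, in an intron of TNPO2, a nuclear import receptor gene) gave the largest of these, with log2 signals of 9.66 and 9.81 with siRNA 2, a mean of 9.19 ± 0.27 (SD, n = 2) with siRNA 1, and 8.46 and 8.58 with scramble. All 4 silenced arrays lay above both scramble arrays, and the siRNA 2 arrays above the siRNA 1 arrays. The difference of 0.94 ± 0.19 (SE) was a 1.92-fold rise (adjusted p = 0.0319, limma). HBII-202 (SNORD68, in RPL13) had 9.45 and 9.32 with siRNA 2, 8.89 and 8.91 with siRNA 1, and 8.37 and 8.18 with scramble, a rise of 1.83-fold (adjusted p = 0.0208, limma). U57 (SNORD57), carried in the gene for the C/D snoRNP protein NOP56, had 9.58 and 9.44 with siRNA 2, 9.07 and 9.01 with siRNA 1, and 8.52 and 8.63 with scramble, a rise of 1.63-fold. These 3 snoRNAs had the same order of groups, with no overlap between any 2 of them. U33 (SNORD33, in RPL13A) rose by 0.76 ± 0.16 and HBII-276 (SNORD87, placed by RefSeq within both MCMDC2 and the lncRNA gene SNHG6) by 0.64 ± 0.14 on the log2 scale. U14B_x_st, 1 of 2 probe sets of U14B (SNORD14B, in RPS13), read 2.24 and 2.27 with siRNA 2 and 1.86 and 1.70 with siRNA 1, whereas both scramble arrays, at 1.18 and 1.29, lay under the floor. Counted from the floor it was at least 1.64-fold higher with silencing (adjusted p = 0.0193, limma). Its mean passed the floor only through the silenced groups, since the scramble mean was 1.23. The call is therefore not independent of that filter.

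The number of calls was not stable. It was 0 when either scramble array, siRNA 1 replicate 1 or siRNA 2 replicate 1 was left out, 4 and 3 without siRNA 1 replicate 2 and siRNA 2 replicate 2, and 0 when the arrays were centred on the H/ACA and Cajal body median.

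**Figure D1:**
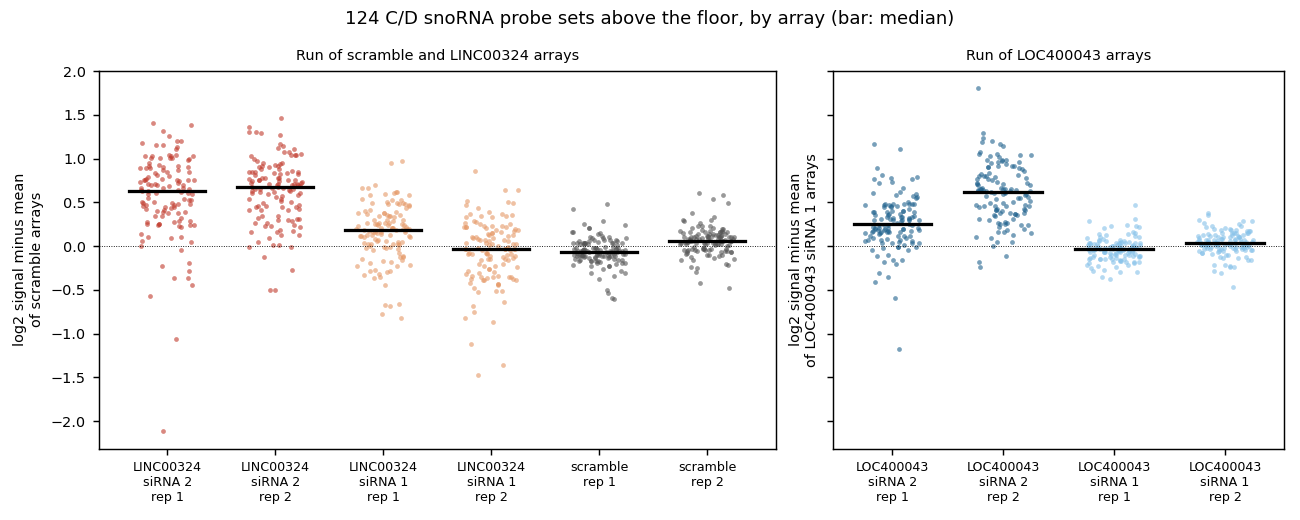
Each point is 1 of the 124 C/D probe sets above the floor on 1 array, as log2 signal minus the mean of the scramble arrays (left, y axis) or of the LOC400043 siRNA 1 arrays (right); the bar is the median. Both LINC00324 siRNA 2 arrays lie mostly above 0, the siRNA 1 arrays near 0, and LOC400043 siRNA 2 replicate 2 above replicate 1.

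LINC00324 siRNA 2 against scramble gave more calls than the mean of both siRNAs. Of the 124 C/D probe sets, 42 were higher and 0 lower (adjusted p from 0.0237 to 0.0492, limma), which is 33.9% of them beside 9.12% called higher over all 724. These 42 stand for 36 snoRNAs, and their log2 differences ran from 0.63 to 1.23. RefSeq places them within 20 genes or transcripts, except U3-2B, U13 and HBII-180A, for which no holding gene was assigned. Both siRNA 2 arrays lay above both scramble arrays for 100 of the 124 probe sets, against 34% of all probe sets tested. The median C/D difference was 0.66, beside 0.09 for all tested, and 116 of 124 differences were positive, beside 413 of all 724.

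Other small RNA classes on the same arrays had other medians, and the differences between classes were not tested. The median difference was 0.25 for H/ACA and Cajal body RNAs (5 of 72 higher), 0.50 for other snoRNAs (6 of 26 higher) and -0.19 for mature miRNAs (8 higher and 35 lower of 329). On the 2 siRNA 2 arrays the median mature miRNA signal was 3.57 and 3.89, against 4.49 and 4.22 with scramble, while the C/D median was 5.98 and 5.90 with siRNA 2, against 5.23 and 5.31 with scramble. The array's background control probes with 18 or more G or C bases also differed between siRNA 2 and scramble (median log2 difference -0.71), while those with up to 12 differed by 0.05. The part of these shifts in the C/D result was not tested. With the arrays centred on the mature miRNA median 106 C/D probe sets were higher, beside 38% of all 724. With quantile normalization 9 were higher, beside 1.93% of all, and with centring on the H/ACA and Cajal body median 2, beside 0.414%. No C/D probe set was called lower under these 3 scalings. The calls did not hold when any 1 of the 4 arrays was left out, and a fit of only these 4 arrays gave 0.

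**Figure D2:**
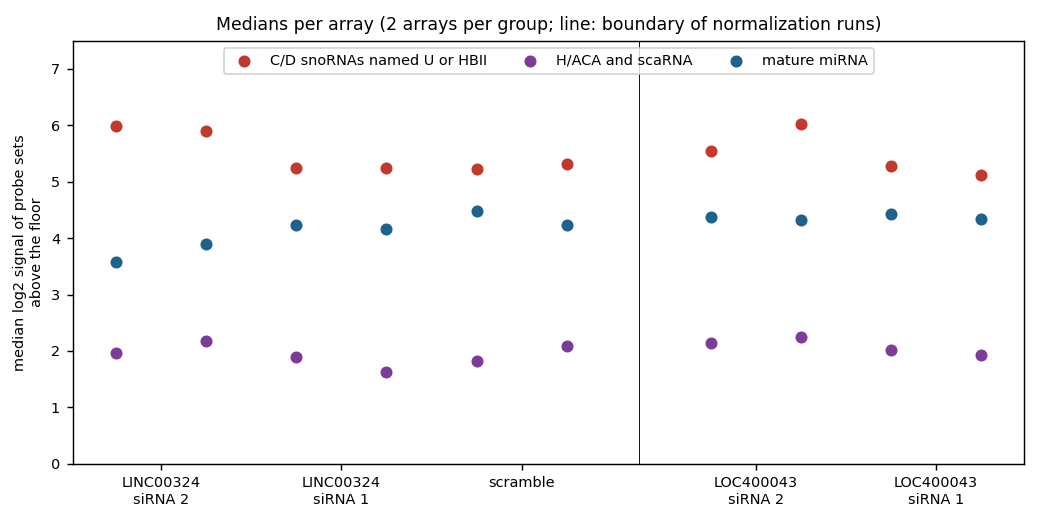
Points are median log2 signals (y axis) of the probe sets above the floor on each of the 10 arrays, by class, with the 2 arrays of a group side by side. With LINC00324 siRNA 2 the C/D median is the highest of its run (5.98 and 5.90) and the mature miRNA median the lowest (3.57 and 3.89).

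Among the snoRNAs that act in precursor cleavage and processing, 10 of 13 probe sets were above the floor. Of these, 6 rose with LINC00324 siRNA 2, with a median difference of 0.80, where 9.12% of all 724 probe sets were called higher. U8 (SNORD118), needed for maturation of 5.8S and 28S ribosomal RNA, read 6.08 and 5.91 with siRNA 2, 5.25 and 4.97 with siRNA 1, and 4.60 and 4.93 with scramble. Its siRNA 2 arrays stood apart from the other 4 arrays. The difference from scramble, 1.23 ± 0.32 (SE), was a 2.34-fold rise (adjusted p = 0.0455, limma) and the largest among the calls. Its second probe set, U8_x_st, rose 2.06-fold, from readings of 7.79 and 7.47 with siRNA 2 against 6.29 and 6.89 with scramble. RefSeq places SNORD118 within TMEM107, but U8 is transcribed from its own promoter, as U3 and U13 are.

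U3, the C/D RNA that directs the early cleavages leading to 18S ribosomal RNA, was read by 5 probe sets for near-identical gene copies, so their signals may be shared. U3-2B_s_st had 7.21 and 7.62 with siRNA 2, 6.54 and 6.21 with siRNA 1, and 6.45 and 6.57 with scramble, and it rose by 0.90 ± 0.22 (adjusted p = 0.0424, limma). The other 4 had differences from 0.38 for U3_s_st to 0.73 for U3-4_s_st and did not pass (adjusted p from 0.109 to 0.306, limma). U3_s_st read 6.57 and 7.12 with siRNA 2 against 6.40 and 6.53 with scramble, and its difference turned to -0.040 with quantile normalization. U13 (SNORD13), which guides acetylation of a cytidine in 18S ribosomal RNA, read 4.36 and 4.54 with siRNA 2 against 3.66 and 3.75 with scramble and rose 1.67-fold. U14B, which pairs with 18S ribosomal RNA and acts in both processing and methylation, rose on both probe sets: U14B_st had 7.26 and 7.48 with siRNA 2, against 6.37 and 6.65 with scramble, a rise of 0.86 ± 0.19, and U14B_x_st was at least 1.93-fold higher when counted from the floor. With siRNA 1 the median of these 10 probe sets was -0.09 against scramble, and 4 of the 10 differences were positive.

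**Figure D3:**
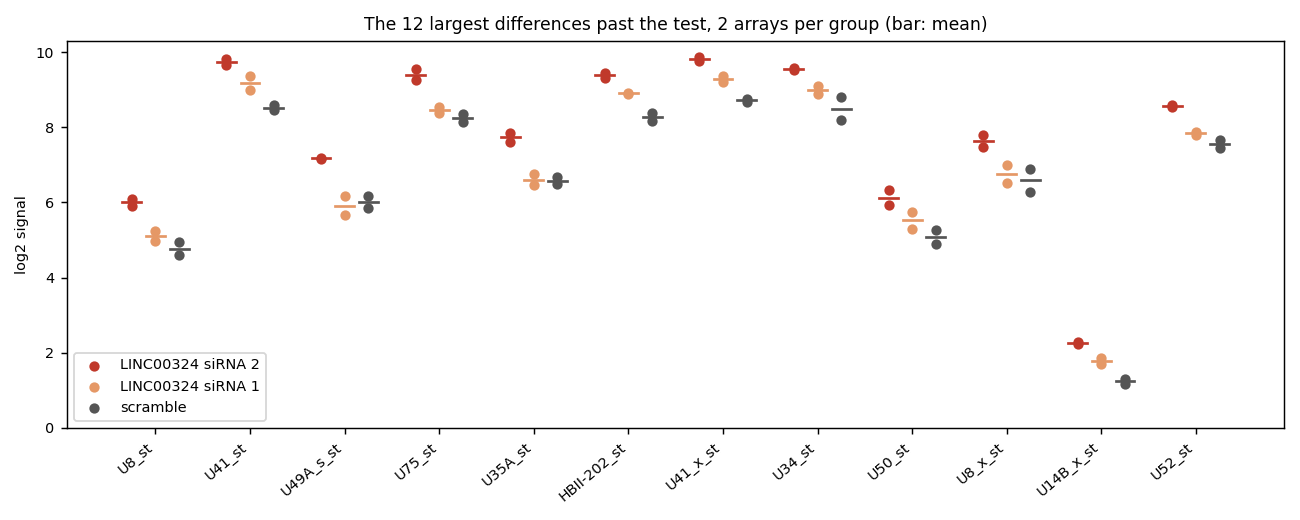
Log2 signals (y axis) on the 2 arrays of LINC00324 siRNA 2, siRNA 1 and scramble for the 12 probe sets with the largest differences past the test, with bars at group means. For every one of the 12 both siRNA 2 arrays lie above both scramble arrays, and U14B_x_st is near the floor of 1.31 with scramble.

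Most of the other C/D snoRNAs guide methylation and come from introns, so they were grouped by host gene. Of the 38 probe sets above the floor in lncRNA hosts, 14 rose (median difference 0.74). In ribosomal protein genes 17 of 36 rose (0.69), in other protein-coding genes 6 of 38 (0.49), and among snoRNAs with their own transcription unit 4 of 8 (0.74). HBII-276 is counted among the protein-coding hosts here, through MCMDC2. Of 4 probe sets with no single host gene assigned, 1 rose (0.48). Beside these counts, and those by host gene below, 33.9% of the C/D probe sets and 9.12% of all 724 were called higher. Differences between these host classes were not tested.

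GAS5, a lncRNA named for its accumulation in growth-arrested cells, carries most of its evolutionarily conserved sequence in its snoRNAs. Of 11 GAS5 probe sets above the floor, 5 rose, with a median difference of 0.76. U75_st (SNORD75) read 9.25 and 9.55 with siRNA 2, 8.55 and 8.39 with siRNA 1, and 8.13 and 8.35 with scramble, a 2.23-fold rise over scramble (adjusted p = 0.0267, limma). U78_s_st read 10.83 and 10.75 with siRNA 2, 10.39 and 10.16 with siRNA 1, and 9.83 and 9.77 with scramble, a 1.99-fold rise. The 3 groups did not overlap for either probe set, nor for U78_x_st. On U75_x_st siRNA 1, at 7.12 and 6.87, overlapped scramble, at 6.73 and 6.97. U44, often used as a reference RNA in miRNA PCR, rose 1.69-fold on U44_st (adjusted p = 0.0492, limma), while U44_x_st, with a difference of 0.76 ± 0.23, had an adjusted p of 0.0708 (limma).

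SNHG1, a second noncoding host, had 11 probe sets above the floor, of which 5 rose (median 0.70). U25_st (SNORD25) read 9.54 and 9.46 with siRNA 2, 8.75 and 8.64 with siRNA 1, and 8.59 and 8.52 with scramble, a rise of 0.95 ± 0.20. The siRNA 1 arrays were only slightly above the scramble arrays. U28_st and U29_st rose 1.74-fold and 1.66-fold, and U30_x_st, with 0.70 ± 0.22, did not pass (adjusted p = 0.0808, limma). U28_x_st, the other probe set of U28, had 0.31 and did not pass either. Both snoRNAs of SNHG32 (listed under its older name C6orf48) rose: U52 (SNORD52) read 8.59 and 8.55 with siRNA 2, against 7.45 and 7.66 with scramble, and U48 (SNORD48), also a common PCR reference, read 8.75 and 8.99 with siRNA 2, against 7.86 and 8.05 with scramble. Their rises were 2.02-fold and 1.89-fold (adjusted p = 0.0261 and 0.0312, limma). In SNHG5, U50_st (SNORD50A) rose 2.07-fold, and the 2 probe sets of U50B, with 0.46 and 0.59, did not pass. U49A_s_st (SNORD49A, in SNHG29) read 7.16 and 7.18 with siRNA 2, 6.16 and 5.67 with siRNA 1, and 5.85 and 6.17 with scramble. That was a 2.24-fold rise over scramble, and the siRNA 1 arrays overlapped the scramble arrays. The other probe sets of U49A, U49A_st (0.76) and U49A_x_st, did not pass.

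Many snoRNA host genes share a type of transcription start with ribosomal protein genes, a C followed by a run of pyrimidines known as the 5′ terminal oligopyrimidine start. The bases around the annotated starts of the 5 lncRNA hosts described above are shown for that reason, each as 15 bases before the start and 15 from it, 5′ to 3′ on the transcribed strand, from RefSeq (GRCh38.p14). Capitals mark a C with at least 4 pyrimidines after it where the C lies within 2 bases of the annotated start, read on this strand only.
SNHG32, chr6:31834901-31834930, plus strand: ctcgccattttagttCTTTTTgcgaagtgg
SNHG5, chr6:85678719-85678748, minus strand: gctgcgcacttcggtCTTTTacgtcggcct
GAS5, chr1:173869031-173869060, minus strand: tgccatcatgaattcagatgtgtttatttt
SNHG1, chr11:62855871-62855900, minus strand: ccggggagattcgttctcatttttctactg
SNHG29, chr17:16438972-16439001, plus strand: cccctccttttgtgaggattgggatattcc
The match was found at 5 of 9 lncRNA hosts looked at (SNHG32, SNHG5, SNHG12, SNHG19 and ZFAS1) and at 10.52% of the 35116 promoters in the table. Where it was not found, these letters are not in this window at the annotated start. That does not tell whether the gene, GAS5 and SNHG1 among them, lacks such a start.

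In RPL13A, a ribosomal protein gene, all 4 probe sets above the floor rose, with a median difference of 1.03. Its U32A, U33 and U35A are known in hamster and mouse cells for a part in the response to saturated fatty acids. U35A_st (SNORD35A) read 7.62 and 7.85 with siRNA 2, 6.75 and 6.47 with siRNA 1, and 6.67 and 6.49 with scramble, a 2.23-fold rise over scramble with siRNA 1 overlapping scramble. U34_st rose 2.08-fold and U33_st 2.02-fold. U32A_x_st, at 6.74 and 6.79 with siRNA 2 against 6.07 and 6.08 with scramble, rose 1.61-fold. The difference of this host from other hosts was not tested.

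RPL7A had 2 of 5 rises, U36A_st (1.93-fold) and U36C_st (1.55-fold). U36A_x_st, the other probe set of U36A, had 0.50 and did not pass. U36B_st (SNORD36B) had the largest difference of any C/D probe set, 1.35 ± 0.39, from 3.82 and 3.71 with siRNA 2 against 2.45 and 2.38 with scramble, but an adjusted p of 0.0565 (limma); its siRNA 1 arrays, at 3.39 and 2.21, were far apart. RPL3 had 3 of 6 by the list used, and these were U43_st, U43_x_st and U83_st, the last of which RefSeq places in DDX39B. RPL17 had 2 of 3 rises, U58C_st (1.73-fold) and U58B_x_st, whose scramble arrays of 1.02 and 1.07 lay under the floor, so that it was at least 1.37-fold higher. The siRNA 1 mean of U58B_x_st, 1.27, was also under the floor. This probe set was tested only because other silenced groups were higher, so its call is not independent of the filter.

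The C/D probe set with the lowest difference was U38B_st (SNORD38B, chosen after its values were seen). It read 2.26 and 3.88 with siRNA 2, 3.71 and 2.91 with siRNA 1, and 4.30 and 4.45 with scramble. All 4 silenced arrays were below both scramble arrays, and the 2 siRNA 2 arrays were far apart. The difference with siRNA 2 was -1.31 ± 0.59 (adjusted p = 0.188, limma), and the second probe set of the same snoRNA, U38B_x_st, had -0.12 ± 0.42.

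The lists were made by snoRNA name and need not hold every snoRNA of a host. The U56 and U57 probe sets of NOP56 had 1 of 3 (U57_st, 1.91-fold), and HBII-55_st, which RefSeq also places in NOP56 but which was on no list (chosen after its values were seen), had 0.78 ± 0.23 with an adjusted p of 0.0596 (limma). In the remaining lists RACK1 had 1 of 3 (U95_x_st, 1.69-fold, with U95_st at 0.72 ± 0.22 and an adjusted p of 0.0663, limma), and C19orf48 1 of 2 (HBII-180A_x_st, 1.79-fold). None passed in RPL4 (0 of 1, U18A_x_st at 0.17 ± 0.34) or RABGGTB (0 of 2, U45C_x_st at 0.74 ± 0.26 and U45B_x_st at 0.29 ± 0.26). Of the 12 largest rises, 3 were probe sets of TNPO2 and RPL13, neither of which was on a list: U41_st (2.32-fold), U41_x_st (2.14-fold) and HBII-202_st (2.16-fold).

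**Figure D4:**
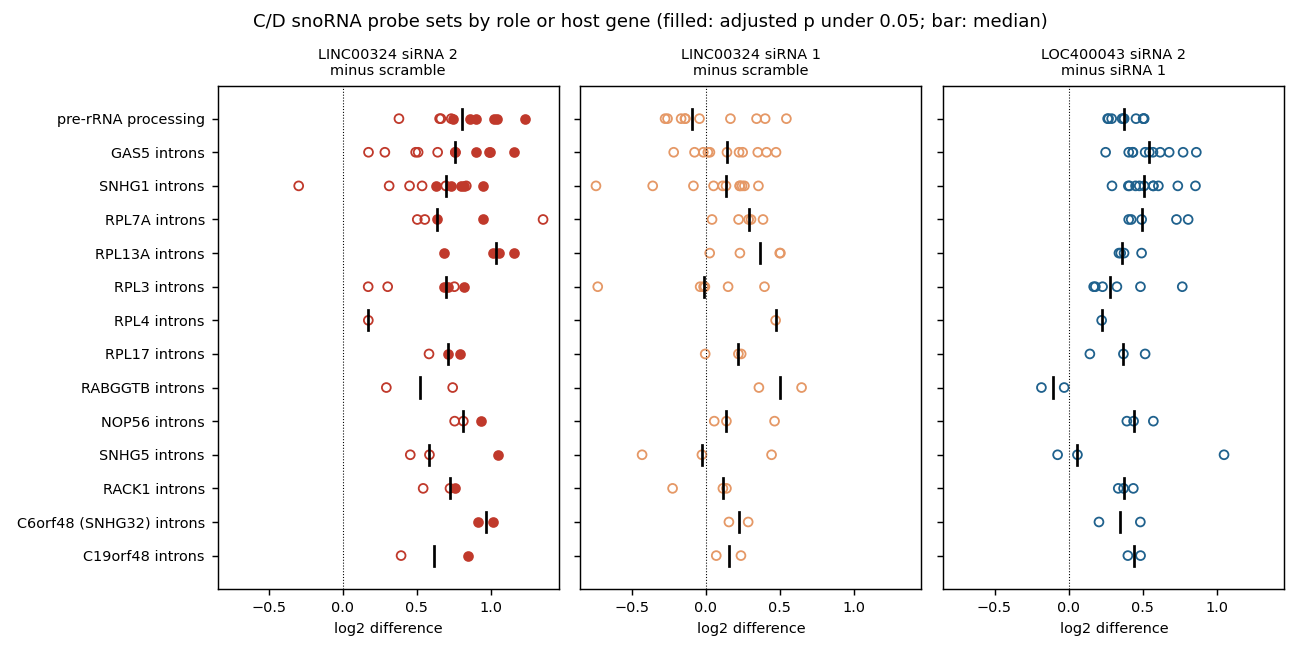
Log2 differences (x axis) of the C/D probe sets above the floor by processing role or host gene (y axis) in 3 comparisons; filled points passed an adjusted p of 0.05 (limma) and bars are list medians. Filled points occur only in the left panel, LINC00324 siRNA 2 minus scramble, where all 4 RPL13A points are filled.

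Above 4.50, the 99th percentile of the plant probe sets, 37 of 79 C/D probe sets rose (median difference 0.75), beside 22.2% of all 261 probe sets at that level. Between that and the floor 5 of 45 rose (0.30), beside 1.73% of all 463, and the difference between the levels was not tested. Where 29 snoRNAs had more than 1 probe set above the floor (60 in all), their probe sets had the same sign for 26 and the same call for 21, and they differed by a median of 0.22. With 1 probe set per snoRNA, that of highest mean, 30 of 93 rose. HBII-382_s_st is annotated by RefSeq as SCARNA2, a Cajal body RNA, and without it the counts were 42 of 123.

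**Figure D5:**
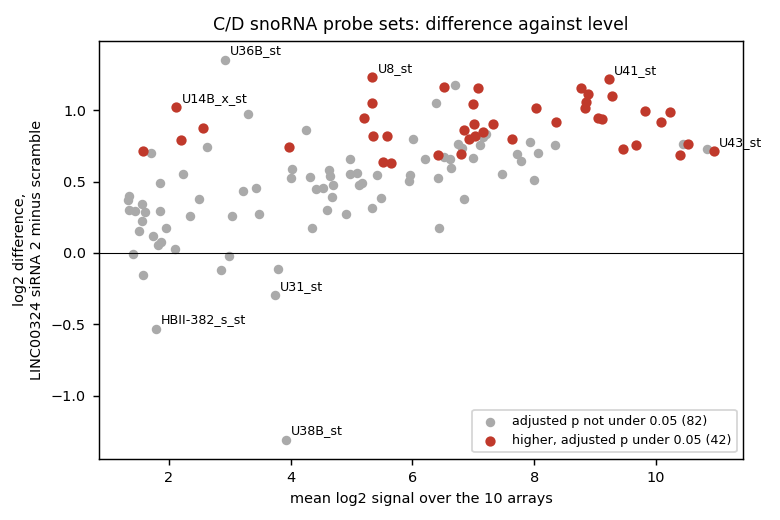
Log2 difference of LINC00324 siRNA 2 minus scramble (y axis) against mean log2 signal over the 10 arrays (x axis) for the 124 C/D probe sets above the floor; red points (42) passed an adjusted p of 0.05 (limma). Of the red points 37 lie above 4.50 and 5 below it, and the lowest points, U38B_st at -1.31 and HBII-382_s_st at -0.53, are grey.

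LINC00324 siRNA 1 against scramble gave 0 C/D probe sets past the adjusted threshold in limma, where 0% of all probe sets were called higher. At an unadjusted p under 0.05, 10 of 124 were higher and 0 lower, beside 4.42% higher over all probe sets. The median C/D difference was 0.05 and 71 of 124 were positive, beside 347 of all 724. The background control probes with 18 or more G or C bases had a median difference of -0.90 here. The lowest p-values belonged to U14B_x_st (1.86 and 1.70 with siRNA 1, against 1.18 and 1.29 with scramble), HBII-202_st, U57_st, U41_st, U41_x_st and U33_st, with differences from 0.47 to 0.67 and adjusted p from 0.162 to 0.296 (limma). All 6 are among the 7 called for the silencing mean, which shares these arrays. The comparison of siRNA 2 with scramble uses the same scramble arrays.

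The difference between the LINC00324 siRNAs was tested directly. siRNA 2 against siRNA 1 gave 0 C/D calls (limma), as 0% of all probe sets were called higher, while 72 of 124 were higher at an unadjusted p under 0.05 beside 16.9% of all. The median C/D difference was 0.56, with 119 positive, beside 0.16 for all tested and 0.40 for H/ACA and Cajal body RNAs. Positive differences were also found for 473 of all 724 and for 67 of 72 H/ACA and Cajal body probe sets. The same control probes had a median difference of 0.20. U49A_s_st had the lowest p, with a difference of 1.26 ± 0.23 (adjusted p = 0.0638, limma), followed by U35A_st with 1.13 ± 0.21 (adjusted p = 0.0703). U3-2B_s_st (1.04), U38A_x_st (0.95), U75_st (0.93) and U43_x_st (0.70) shared an adjusted p of 0.0975 (limma). Both siRNA 2 arrays of each of these 6 lay above both siRNA 1 arrays. A larger rise with siRNA 2 than with siRNA 1 was therefore not shown for any single C/D probe set at the adjusted threshold. Among the 79 C/D probe sets above a higher floor of 4.50, 30 were called higher, beside 17.2% of all 261 tested there. With centring on the mature miRNA median 84 of 124 were, beside 23.2% of all 724.

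LOC400043 siRNA 2 against LOC400043 siRNA 1 likewise gave 0 C/D calls in limma, beside 0.276% of all probe sets called higher. At an unadjusted p under 0.05, 36 of 124 were higher and 0 lower, beside 11.7% higher over all. Both siRNA 2 arrays lay above both siRNA 1 arrays for 90 of 124, against 35.8% of all probe sets. The median C/D difference was 0.43 (115 positive), beside 0.15 for all tested, 0.30 for H/ACA and Cajal body RNAs and 0.00 for mature miRNAs. Of all 724 probe sets 462 were positive, and of the 72 H/ACA and Cajal body probe sets 62. Background control probes with 18 or more G or C bases differed by a median of -0.63 here, and their part in the result was not tested. The 2 siRNA 2 arrays differed, with a C/D median of 5.55 for replicate 1 and 6.03 for replicate 2, against 5.27 and 5.12 with siRNA 1.

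U42A (SNORD42A, in the ribosomal protein gene RPL23A) had the lowest p, with 7.31 and 7.55 with LOC400043 siRNA 2 against 6.49 and 6.51 with siRNA 1. The difference was 0.93 ± 0.18 (adjusted p = 0.107, limma). U50_st, in SNHG5, read 5.33 and 5.64 with siRNA 2 against 4.67 and 4.19 with siRNA 1, a difference of 1.05 ± 0.27, and U46_x_st (SNORD46) read 5.56 and 5.96 against 4.77 and 4.76, a difference of 1.00 ± 0.23. For these 3 probe sets the groups did not overlap. They did for U46_s_st, another probe set of U46, with 4.61 and 5.49 with siRNA 2 against 4.89 and 3.96 with siRNA 1. HBII-382_s_st, U80_st (SNORD80, in GAS5) and U59B_x_st (SNORD59B, in ATP5F1B) had differences of 0.84, 0.86 and 0.86, and the adjusted p of the 6 ran from 0.107 to 0.141 (limma).

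By role and host, the LOC400043 medians were 0.37 for the 10 processing probe sets, 0.55 for GAS5, 0.51 for SNHG1 and 0.36 for RPL13A, with no member past the adjusted threshold. U8_st read 5.15 and 6.18 with LOC400043 siRNA 2 against 5.20 and 5.12 with siRNA 1, so the groups overlapped and replicate 2 carried the difference of 0.50 ± 0.32, which was -0.010 without it. The 2 RABGGTB probe sets had -0.18 and -0.03, and no other list had a negative median. In SNHG5 the median was 0.06 and the lowest difference, that of U50B_st, was -0.07. Among the 79 C/D probe sets above the higher floor 7 were called higher, beside 5.75% of all 261.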

How the data were processed

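HEK-293 RNA was hybridised to 10 Affymetrix miRNA 2.0 arrays, which were grouped by the labels' siRNA. The values deposited by the authors are log2 signals of probe sets, already normalized. The submitters' processing notes name limma, and how background was corrected and arrays were normalized is not stated there. The scramble columns differ between the authors' 2 deposited tables of log2 values by up to 1.29, so these come from separate normalization runs. The LOC400043 values used here were not checked against either of these, so their run is inferred. In 1 table, 4 per-sample columns match no label and were not used.

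The floor of 1.31 is the 95th percentile of the mean signal over 2392 plant probe sets of 11 species, and 4.50 is the 99th. Tests used limma 3.58.1 under R 4.3.3 (1 group mean each in a single lmFit of the 10 arrays, contrasts between them, eBayes with 5 residual and 2.62 prior degrees of freedom, Benjamini-Hochberg adjustment over 724 human probe sets at 0.05), and the code was tested on simulated data. "At least" folds count from the floor, where every scramble array was under it. Such probe sets passed the floor, a mean over the 10 arrays, only through silenced groups. Alternatives were other scalings, floors, arrays, probe sets tested and a replicate block. Same-numbered arrays did not deviate together (correlations of deviations from -0.26 to 0.09 over all tested probe sets and from -0.33 to 0.14 over the C/D probe sets). Plots used matplotlib 3.10.9 (Python 3.11.15).

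The members, the host and role lists and the markers were chosen with earlier results of these data known. For each comparison, the probe sets named are up to 12 largest differences past the threshold in each direction, filled up to 6 by the lowest p. Further ones are the 10 of highest mean, all of the processing list, up to 4 of highest mean per list, and the 3 nearest the floor on each side. RefSeq tables gave a symbol to 118 of 123 names, and the genes that hold them. The values of 1 host gene list are not reported here.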

Additional observations from a re-analysis of the deposited data

How the results depend on the processing

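Counts of C/D probe sets called depended on the setting. For LINC00324 silencing the 7 calls became 31 with median centring, 2 with quantile normalization, 23 with the higher floor, 0 with only the arrays compared, 13 with all species tested, 0 with the replicate block, 38 with centring on the mature miRNA median and 0 with centring on the H/ACA and Cajal body median; leaving out 1 array gave 0 to 4. For LINC00324 siRNA 2 against scramble the 42 calls became 69 with median centring, 9 with quantile normalization, 23 with no floor, 57 with the higher floor, 29 with all species tested, 0 with only the arrays compared, 0 with the replicate block, 106 and 2 with the mature miRNA and the H/ACA centring, and 0 without each array in turn. The other 3 comparisons had 0 calls, and the settings that gave more were the higher floor (1 for siRNA 1 against scramble, 30 for LINC00324 siRNA 2 against siRNA 1, 7 for LOC400043) and the mature miRNA centring (84 for LINC00324 siRNA 2 against siRNA 1). They kept 0 calls without each array in turn and with the replicate block. No C/D probe set was called lower with any setting of these comparisons. Fits of only the compared arrays, or without an array, have fewer arrays, and the higher floor tests 261 probe sets. The cause of the changed counts was not tested for any setting. The labels do not say whether the replicate numbers pair arrays. Each group has both replicate numbers, so the block changes p-values and not the size of a difference. The mature miRNA and H/ACA centrings were chosen after the data were seen. With the H/ACA centring 0.138% of all 724 were called higher for silencing and 0.414% for siRNA 2 against scramble. Median centring moved the median of all tested probe sets with siRNA 2 to 0.29, against 0.09 as deposited, and the calls over all 724 to 117 higher and 20 lower, against 66 and 36; quantile normalization gave 14 and 27. For silencing these were 54 and 19, and 4 and 22, against 11 and 29. Shares of all probe sets called higher for silencing were 16.5% with the higher floor, 1.07% with all species and 10.2% with the mature miRNA centring. For siRNA 2 against scramble they were 34.9%, 2.01% and 38%, and 0.789% with no floor. With the higher floor they were 1.53% for siRNA 1 against scramble, 17.2% for LINC00324 siRNA 2 against siRNA 1 and 5.75% for LOC400043. The mature miRNA centring gave 23.2% for LINC00324 siRNA 2 against siRNA 1.

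Signs of small differences also turned. With quantile normalization, silencing gave -0.110 for U3-2_s_st and -0.191 for U3_s_st, and siRNA 2 against scramble -0.040 for U3_s_st. For LOC400043, median, quantile and H/ACA centring in this order gave -0.052, -0.090 and -0.060 for U83B_st, -0.162, -0.154 and -0.169 for U50B_x_st and -0.017, -0.033 and -0.024 for U52_st. Median and H/ACA centring gave -0.041 and -0.049 for U43_x_st and -0.078 and -0.085 for U58B_x_st, H/ACA centring -0.006 for U18A_x_st, and mature miRNA centring 0.010 for U45B_x_st. Leaving out 1 array turned U3_s_st (-0.086 to 0.192) and U50B_x_st (-0.153 to 0.309) for silencing, U18A_x_st (-0.366 to 0.712) for siRNA 2 against scramble, and U8_st (-0.010 to 1.017), U45B_x_st (-0.264 to 0.205) and U50B_st (-0.155 to 0.007) for LOC400043.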

Other observations

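The array also carries rows for miRNAs that were later traced to C/D snoRNAs. The withdrawn miR-768-5p and miR-768-3p lie within HBII-239 (SNORD71). miR-768-5p read 9.67 and 9.67 with LINC00324 siRNA 2, 9.22 and 9.29 with siRNA 1, and 9.07 and 8.95 with scramble. HBII-239_st read 3.60 and 3.77 with siRNA 2, 3.36 and 3.34 with siRNA 1, and 3.05 and 3.27 with scramble, so both rows had siRNA 2 highest, then siRNA 1, with no overlap. miR-768-3p had another order, with 6.13 and 6.37 with siRNA 2, 4.95 and 5.06 with siRNA 1, and 5.71 and 5.66 with scramble. With the LOC400043 siRNAs, miR-768-5p read 9.92 and 9.77 with siRNA 2 against 9.36 and 9.65 with siRNA 1, and HBII-239_st 5.98 and 5.77 with siRNA 2 against 5.43 and 5.56 with siRNA 1. The withdrawn miR-1259 belongs to the HBII-99 family of snoRNAs. It was below the floor of 1.31 on every array, with 0.97 and 0.76 with LINC00324 siRNA 2, 0.80 and 0.91 with siRNA 1, and 0.44 and 1.10 with scramble, while HBII-99_st (SNORD12) read 4.63 and 3.80 with siRNA 2, 2.57 and 3.22 with siRNA 1, and 3.08 and 3.41 with scramble. HBII-99B_s_st, another probe set of that family, had a mean of 1.20 over the 10 arrays, which is also below the floor. These rows were chosen after the data were seen, and no test was made of them.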
